A study of Mus musculus with 2 samples.

Results

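The genes *Rsad2*, *Cmpk2*, *Isg15*, *Usp18*, *Herc6*, *Ifi27*, *Ifi27l2a*, *Ifi35*, *Ifi44* and *Bst2* encode effectors of the interferon response, and their expression was compared between cultured hepatocytes of control mice and of *Drp1*LiKO mice, which carry a liver-specific deletion of the gene *Drp1* of the mitochondrial fission GTPase DRP1. These 10 genes, of 37074 gene names on the arrays, were taken by name with every probe that carries the name. They were chosen by measured values of this same comparison, so their ratios are given as a description, with no test. The labels give a C57BL/6 background for both groups. *Drp1*LiKO mice carried Alb-Cre and 2 floxed alleles of *Drp1*, and the control mice, which the labels call wild type, were *Drp1*flox/flox littermates without Cre. Alb-Cre acts in cells that express albumin, so non-parenchymal cells that came along and never expressed it would keep the gene, which was not measured here. Cells were obtained by collagenase perfusion and slow centrifugation, seeded on collagen, and harvested 24 h later without lipopolysaccharide. The age and sex of these littermates and the number of mice behind each RNA were not given in the sources used here. RNA labeled with Cy3 was hybridized to 1 array per genotype, so every difference describes these 2 arrays, and errors are technical only.

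Interferons bind receptors that activate JAK1 and TYK2, and the kinases phosphorylate STAT proteins such as STAT2, which join IRF9 and bind interferon-stimulated response elements in promoters. The 10 genes are classical targets of this path. Viperin, the product of *Rsad2*, converts CTP into a chain terminator of viral RNA synthesis, and CMPK2 is a mitochondrial nucleotide kinase that can supply CTP. ISG15 is a ubiquitin-like protein that is attached to other proteins by a cascade of UBA7, UBE2L6 and, in the mouse, HERC6, and is removed by USP18, which also binds IFNAR2 and restrains the receptor. Hepatocytes respond to type I interferon, and Kupffer cells, the resident macrophages of the liver, can produce it.

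As a frame for the values, 30275 of 56600 probes were well above background on at least 1 array, and these covered 20165 genes, of which 17735 were measured on both arrays. The lowest signal well above background was 18.2 in control cells against 15.0 in *Drp1*LiKO cells. Each array was scaled by its 75th percentile, a signal of 313 in control cells against 356 in *Drp1*LiKO cells, so a log2 ratio (*Drp1*LiKO minus control) is slightly smaller than the signals alone would give. A Z score of 2, the threshold that the study names, lay at a log2 ratio of 1.30 as computed here, which is 2.46-fold. The median log2 ratio of all genes was -0.05, with quartiles of -0.27 and 0.21. *Dnm1l*, as the arrays name *Drp1*, gave a signal of 2602 ± 260 in control cells against 1217 ± 122 in *Drp1*LiKO cells at its brightest probe, a log2 ratio of -1.28 with a Z score of -1.95, and whether this probe lies in the deleted part is not given in the sources used here. Its other probe, near background, gave a signal of 22.8 in control cells against 20.9 in *Drp1*LiKO cells and a log2 ratio of -0.31. Albumin, the defining transcript of hepatocytes, gave a signal of 219613 in control cells against 266703 in *Drp1*LiKO cells.

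The stretches before the transcription start of 5 of the genes are shown because they carry the letters to which interferon-activated factors are known to bind, or, for *Cmpk2*, the neighbor of *Rsad2*, lack them. RefSeq sequences of GRCm38.p6 were at hand for 7 of the 10 genes, *Rsad2*, *Cmpk2*, *Isg15*, *Herc6*, *Ifi35*, *Ifi44* and *Bst2*. The 250 bases before the start were searched on both strands for GAAANNGAAA, the repeat of the interferon-stimulated response element, and for AANNGAAA, the core shared by interferon regulatory factors, which every match of the longer motif contains. Each line below holds the last 160 bases before the start, 5′ to 3′ on the strand of the gene, with matches in capitals.
Rsad2 (chr12:26456453-26456612, minus strand): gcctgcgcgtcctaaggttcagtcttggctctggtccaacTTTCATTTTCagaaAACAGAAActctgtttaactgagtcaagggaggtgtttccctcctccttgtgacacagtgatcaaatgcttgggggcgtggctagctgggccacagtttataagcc
Cmpk2 (chr12:26469055-26469214, plus strand): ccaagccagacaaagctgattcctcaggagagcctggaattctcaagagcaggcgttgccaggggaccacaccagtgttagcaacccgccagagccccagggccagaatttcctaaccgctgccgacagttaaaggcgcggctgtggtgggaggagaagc
Isg15 (chr4:156200819-156200978, minus strand): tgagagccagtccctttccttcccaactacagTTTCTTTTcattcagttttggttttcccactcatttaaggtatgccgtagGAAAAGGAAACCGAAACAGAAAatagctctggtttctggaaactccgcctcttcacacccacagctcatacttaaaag
Ifi44 (chr3:151749911-151750070, minus strand): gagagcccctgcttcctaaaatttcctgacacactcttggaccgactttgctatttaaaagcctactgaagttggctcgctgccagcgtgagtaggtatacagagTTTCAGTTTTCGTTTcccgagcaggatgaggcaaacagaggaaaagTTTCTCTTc
Bst2 (chr8:71537473-71537632, minus strand): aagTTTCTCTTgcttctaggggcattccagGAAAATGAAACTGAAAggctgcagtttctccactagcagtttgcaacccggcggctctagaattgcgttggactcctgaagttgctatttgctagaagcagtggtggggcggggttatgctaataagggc

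The longer motif was present before 3 of the 7 genes. *Isg15* held 3 overlapping copies, between 78 and 57 bases before the start. *Bst2* held 2 overlapping copies, between 130 and 115 bases before the start, and *Rsad2* held 1 on the opposite strand, from 120 to 111 bases before it. Among all 27025 genes with such a sequence, 3.46% held this motif. The shorter core was present before 4 of the 7 genes, the same 3 and *Ifi44*, against 23.9% of all genes. *Ifi44* held 3 copies of the core, the closest 9 to 2 bases before the start, and none of the longer motif. Neither motif was found in this window of *Cmpk2*, *Herc6* or *Ifi35*. A match is a run of letters and not a measured binding site, and its absence here says nothing about a factor.

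Each of the 10 genes was brighter on the *Drp1*LiKO array than on the control array after scaling, where 44.5% of all genes had a log2 ratio above 0. By the brightest probe, 8 of 10 passed a Z score of 2, compared with 705 of 20165 genes, or 3.5%, and none was lower past the threshold, compared with 2.81% of all genes. Since the genes were chosen on this comparison, nothing is read from these shares. The median log2 ratio of the 10 genes was 2.43, or 5.40-fold. The ratios ranged from 0.69 for *Ifi35* to 5.36 for *Rsad2*, and 4 of the genes ranked among the 100 largest increases of the genes measured on both arrays. *Bst2*, with a Z score of 2.07, lay just inside the threshold, and *Herc6*, with 1.23, was the nearest outside. At the level of probes, 15 carried these names, 14 were well above background on at least 1 array and 12 on both. All 14 were higher in *Drp1*LiKO cells, and 10 of them passed the threshold, compared with 2.94% of all probes. In RNA from a whole culture, more cells of a type that expresses a gene and more RNA of the gene per cell cannot be told apart.

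**Figure D1:**
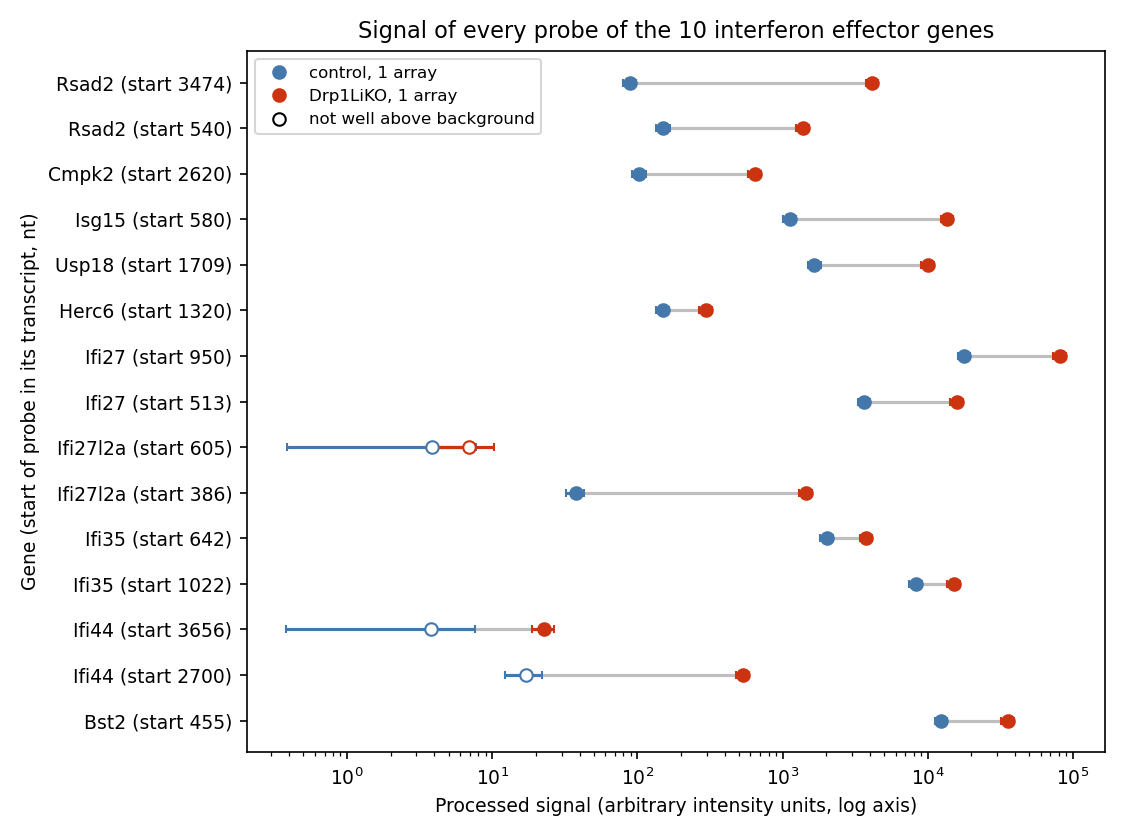
Processed signal of each of the 15 probes of the 10 genes on a log axis, before scaling, in control (blue) and *Drp1*LiKO (red) cells, 1 array each. Bars are the error that Feature Extraction gives for the signal, shortened at the lower end where they would approach 0, and open circles are not well above background. Red lies to the right of blue in every row, by most in the first probe of *Rsad2* and in *Ifi27l2a* at start 386.

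*Rsad2* had the largest ratio of any gene measured on both arrays. Its brightest probe (NM_021384, chromosome 12 of mm9, 27127859 to 27127918) gave a signal of 88.7 ± 9.68 in control cells against 4141 ± 414 in *Drp1*LiKO cells, where ± is the error given by Feature Extraction. In control cells it was thus well above background but low, and in *Drp1*LiKO cells it was among the stronger signals, above the 75th percentile. The log2 ratio was 5.36, or 41.1-fold, with a technical error of 0.21 and a Z score of 8.23. The other probe, across a splice junction closer to the 5′ end of the transcript, gave a signal of 151 ± 15.7 in control cells against 1379 ± 138 in *Drp1*LiKO cells, with a log2 ratio of 3.01 and a Z score of 4.63. The probes of *Rsad2* thus gave the same direction, but their ratios differed by 2.35 on the log2 scale, with a technical error of the difference of 0.30. The median of both probes gave 4.19, and correction of the background by normexp gave 4.65.

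The first 30 of the 60 bases of these probes are shown, since they differ in position and in ratio.
Rsad2 probe starting at base 3474 of the transcript: tgtttggagtttggagtctaatggttgcat
Rsad2 probe starting at base 540 of the transcript: tatggggagtatttggacattcttgctatc

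*Cmpk2*, the gene next to *Rsad2* on chromosome 12, was higher as well. Its probe (NM_020557, mm9, 27164134 to 27164193) gave a signal of 103 ± 11.2 in control cells against 642 ± 64.3 in *Drp1*LiKO cells. The log2 ratio was 2.45, or 5.47-fold, with an error of 0.21 and rank 98 among genes measured on both arrays. The genes that flank this pair, *Rnf144a* and *Sox11*, were not well above background on either array. Of 13 partners of viperin and enzymes of nucleotide supply, none passed the threshold in either direction, and 9 had a log2 ratio above 0, with a median of 0.09. The highest were *Fdps*, the farnesyl diphosphate synthase to which viperin binds, at 0.53, and *Fam96b*, of iron-sulfur cluster insertion, at 0.29. The lowest were *Fam96a*, of the same machinery, at -0.23, and *Hadhb*, of the mitochondrial trifunctional protein, at -0.19. The probes of *Hadhb* ranged from -0.20 to 0.30.

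*Isg15* (NM_015783, chromosome 4 of mm9, 155573649 to 155573708) gave a signal of 1122 ± 112 in control cells against 13645 ± 1365 in *Drp1*LiKO cells. It was thus already above the 75th percentile of the array in control cells. The log2 ratio was 3.42, or 10.7-fold, with an error of 0.20 and rank 27. *Usp18*, whose product removes ISG15, gave a signal of 1659 ± 166 in control cells against 10021 ± 1002 in *Drp1*LiKO cells (NM_011909, chromosome 6 of mm9, 121220874 to 121220933). Its log2 ratio was 2.41, or 5.32-fold, with an error of 0.20 and rank 104. *Herc6*, the ligase of the cascade, did not pass the threshold. Its signal was 150 ± 15.6 in control cells against 295 ± 29.7 in *Drp1*LiKO cells (NM_025992, chromosome 6 of mm9, 57568608 to 57568667), a log2 ratio of 0.80, or 1.74-fold. This ratio exceeded its technical error of 0.21 but had a Z score of 1.23.

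In the wider ISG15 pathway, all 12 other genes listed were compared, and 10 had a log2 ratio above 0, with a median of 0.31. Of these, 2 passed the threshold upward and none downward. *Itgb2*, a chain of the integrin LFA-1 that binds extracellular ISG15 and is made by leukocytes, gave a signal of 29.0 in control cells against 88.7 in *Drp1*LiKO cells, with a log2 ratio of 1.43. *Stat2*, which holds USP18 at the receptor, went from 1230 to 3565, with a log2 ratio of 1.35. With no floor for dim signals the ratios of these 2 genes were unchanged. A Z score of 2 then lay at a log2 ratio of 1.84, and neither of them passed. *Uba7*, the activating enzyme, had a log2 ratio of 1.25 and *Ube2l6*, the conjugating enzyme, of 0.61, both short of the threshold. Within conjugation, the log2 ratio of the modifier (3.42) was thus larger than those of its activating, conjugating and ligating enzymes. The lowest ratios were those of *Skp2*, which targets USP18 for degradation, at -0.67, and *Usp5*, a deubiquitinase, at -0.18. At its 4 probes *Usp5* ranged from -2.04 to -0.13, and the counts above rest on the brightest probe of each gene.

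*Ifi27* and *Ifi27l2a* encode small hydrophobic proteins of one family, and in the RefSeq table they overlap on chromosome 12, on opposite strands. The probe of *Ifi27l2a* that was measured on both arrays (NM_029803, mm9, 104680394 to 104680453, minus strand) gave a signal of 37.7 ± 5.30 in control cells against 1449 ± 145 in *Drp1*LiKO cells. The log2 ratio was 5.08, or 33.8-fold, with an error of 0.25, the second largest of all genes measured on both arrays. With normexp background correction it was 3.84. Another probe, for the transcript NM_001281830, was not well above background on either array, at signals of 3.87 and 6.97, and gave no ratio. *Ifi27* (NM_026790, plus strand) was measured by 2 probes. The brighter one (mm9, 104678353 to 104678412) gave a signal of 17828 ± 1783 in control cells against 81146 ± 8115 in *Drp1*LiKO cells, with a log2 ratio of 2.00 or 4.01-fold. The other one gave a signal of 3657 ± 366 and 15903 ± 1590, a log2 ratio of 1.94. The ratios of the *Ifi27* probes differed by 0.07, less than the technical error of that difference, 0.29.

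*Ifi27l2b*, the other neighbor in this cluster, gave a signal of 7854 in control cells against 19806 in *Drp1*LiKO cells, with a log2 ratio of 1.15 that did not pass the threshold. Since genes of a family can share sequence, the probes were compared with each other, but not with the transcripts of the other genes. The first 30 bases of the brightest probe of each are shown.
Ifi27 probe: ccaacttgtctaacacagagaaggattaat
Ifi27l2a probe: ccaaaaggcaccttcagaaccctcactgat
Ifi27l2b probe: gagacgcaggaactgcagaagacacaggag
In the best ungapped alignment, the probe of *Ifi27l2a* shared 25 of 60 bases with that of *Ifi27l2b*. No pair among the 16 probes of the 10 genes and *Ifi27l2b* shared more than 27 bases. Pairs from unrelated genes reached as many bases as pairs within the family. Whether a probe also binds the transcript of a relative was therefore not tested.

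*Ifi44*, an interferon-induced cytoplasmic protein, was not well above background in control cells, so its ratio is a bound. Its brightest probe (NM_133871, chromosome 3 of mm9, 151394035 to 151394094) gave a signal of 17.1 ± 4.83 in control cells against 530 ± 53.1 in *Drp1*LiKO cells. Against the lowest signal well above background in control cells, it was at least 25.6-fold higher, a log2 ratio of at least 4.68. The other probe, designed to a separate Ensembl transcript (ENSMUST00000133888), gave a signal of 3.79 ± 3.80 in control, not well above background, and of 22.6 ± 3.85 in *Drp1*LiKO cells, which gives a bound of at least 1.09-fold. Both probes were thus higher in *Drp1*LiKO cells, but the second bound is so low that its size was not measured. The median of the bounds was 2.40, and normexp gave 2.59 for the brightest probe. The neighbor *Ifi44l* was not well above background on either array.
Ifi44 probe starting at base 2700 of its transcript, first 30 bases: atgaattcattaagagagtagtgagagaac
Ifi44 probe starting at base 3656 of its transcript, first 30 bases: gcaagctgctaattagaaacgctatagggt

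*Ifi35*, which forms a complex with NMI, was measured by 2 probes with nearly equal ratios. The brighter (NM_027320, chromosome 11 of mm9, 101319678 to 101319737) gave a signal of 8276 ± 828 in control cells against 15194 ± 1519 in *Drp1*LiKO cells, with a log2 ratio of 0.69 or 1.62-fold. The other gave a signal of 2026 ± 203 in control cells against 3767 ± 377 in *Drp1*LiKO cells, with a log2 ratio of 0.71. Neither passed the threshold. The partner *Nmi* had a log2 ratio of 0.06. *Bst2*, the gene of tetherin, which holds budding virions on the cell surface, gave a signal of 12424 ± 1242 in control cells against 35773 ± 3577 in *Drp1*LiKO cells (NM_198095, chromosome 8 of mm9, 74058603 to 74058662). Its log2 ratio was 1.34, or 2.54-fold, with an error of 0.20. In the normalized values that the authors deposited, *Bst2* was at 12906 in control cells against 11510 in *Drp1*LiKO cells, with a log2 ratio of -0.17, so its direction depends on which of the deposited files is read. The *Drp1*LiKO column of that table had a rank correlation of 0.958 across probes with the array it belongs to, and the control column 0.999999 with its own.

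**Figure D2:**
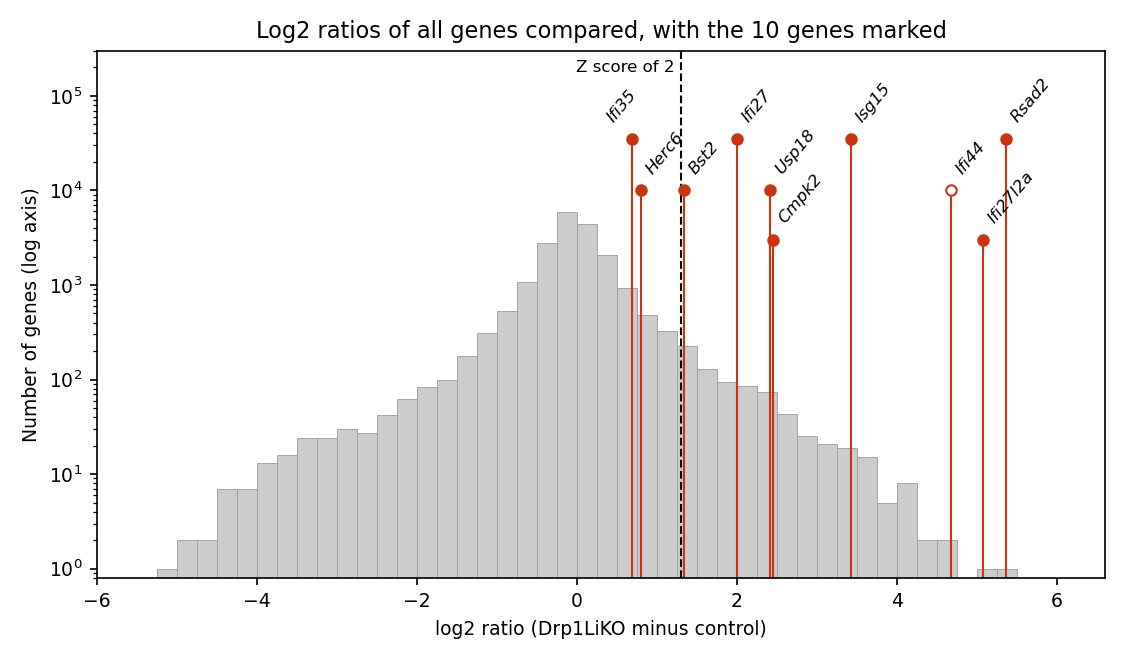
Log2 ratio (*Drp1*LiKO minus control) on the horizontal axis and number of genes, on a log axis, of all 20165 genes compared, 1 array per genotype, with the 10 genes as red pins whose height has no meaning (open: a bound). The pins of *Rsad2* and *Ifi27l2a* stand at the right end of the distribution, whereas those of *Ifi35* and *Herc6* stand left of the dashed line at a Z score of 2.

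Among the 7 relatives and partners of *Herc6*, *Ifi27*, *Ifi35* and *Ifi44* listed, 6 were compared and none passed the threshold in either direction, with a median of 0.19. The highest were *Ifi27l2b* at 1.15 and *Herc2* at 0.62, and the lowest *Herc4* at -0.18 and *Herc3* at -0.16. The probes of *Herc2* ranged from -0.41 to 0.62, those of *Herc3* from -0.31 to 0.45 and those of *Herc4* from -0.20 to 1.07. Along the chromosomes, 16 genes that are not among the 10 lie next to them in the RefSeq order, and 11 of these were well above background on at least 1 array. Their median log2 ratio was 0.20, and 1 passed the threshold upward and none downward. That gene was *Tuba8*, a tubulin next to *Usp18*, with a signal of 182 in control cells against 862 in *Drp1*LiKO cells, with a log2 ratio of 2.06. The neighbor of *Usp18* on the other side, *Slc6a13*, had 0.20. The remaining neighbors compared were *Agrn* beside *Isg15* at -0.28, *Ppm1k* and *Pyurf* beside *Herc6* at -0.25 and 0.04, *Ddx24* beside *Ifi27l2a* at 0.37, *Rpl27* and *Vat1* beside *Ifi35* at -0.10 and 0.60, and *Mvb12a* beside *Bst2* at -0.01. *Adgrl4* beside *Ifi44* had a bound of at least 0.90.

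The signals most like those of *Rsad2* over both arrays, by the Euclidean distance of the 2 scaled log2 signals, belonged to *Ly6c1* at a distance of 1.1, *Phf11d* at 1.16 and *Dcn*, a proteoglycan made by stellate cells, at 1.20. Their log2 ratios were 3.87, 3.83 and 4.06. For *Isg15* they belonged to *Gm10413* at 0.47, the antiviral synthetase gene *Oas1a* at 0.60 and the keratin gene *Krt17* at 0.66, with log2 ratios of 3.09, 4.20 and 2.50. With only 2 arrays, and since signals of different probes are not on a common scale, this likeness is a description of the 2 values alone.

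The ligands and receptors upstream of the 10 genes were read from the same arrays. Of 16 interferon ligand genes on the array, 8 were well above background on at least 1 array and 6 of these had a log2 ratio above 0, with a median of 0.32. This median was 0.15 over the 5 measured on both arrays, -0.03 with normexp and -0.18 with the deposited normalized values. The ligand that passed the threshold was *Ifnb1*, the gene of interferon beta. It gave a signal of 6.27 in control, not well above background, and of 93.3 in *Drp1*LiKO cells, so it was at least 4.51-fold higher. When Z scores were taken within bins of signal, or with the deposited normalized values, no ligand passed. Of the ligands measured on both arrays, the highest were *Ifnl3* at 0.39 and *Ifna1* at 0.37 and the lowest *Ifna5* at -0.71 and *Ifna9* at -0.36, all at signals below 50 on both arrays. The interferon alpha genes resemble each other in sequence, and their probes may not tell them apart. *Ifng*, the gene of type II interferon, was not well above background on either array.

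All 14 genes of receptors, kinases and transcription factors were compared, and 9 had a log2 ratio above 0, with a median of 0.27. This median was -0.06 when a gene was the median of its probes and 0.04 with the deposited normalized values. Under the other alternatives it lay between 0.24 and 0.31. As reported, 3 of the 14 genes passed the threshold upward and none downward. Among these were *Irf7*, which drives interferon genes, with a signal of 9848 in control cells against 43780 in *Drp1*LiKO cells and a log2 ratio of 1.97, and *Stat2* at 1.35. With no floor for dim signals, where a Z score of 2 lay at a log2 ratio of 1.84, 1 of the 14 passed. *Irf9*, the partner of STAT2, had a log2 ratio of 1.00. The receptor chains had 0.58 for *Ifnar1* and 0.03 for *Ifnar2*, and the lowest ratios were those of *Jak1* at -0.22 and *Irf1* at -0.19. The probes of *Ifnar1* ranged from -0.38 to 0.58 and those of *Ifnar2* from -0.29 to 0.03. Among 39 other interferon-induced genes, 38 were compared, 36 were above 0 on the log2 scale and 19 were past the threshold, and the median was 1.24. The highest were *Oasl2* at 4.37 and *Oas1a* at 4.20, both of the oligoadenylate synthetase family, and the lowest *Slfn5* at -0.43 and *Ifit2* at -0.33. These are ratios of the brightest probe. The 3 probes of *Slfn5* ranged from -0.43 to 2.53, so its direction depended on the probe.

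**Figure D3:**
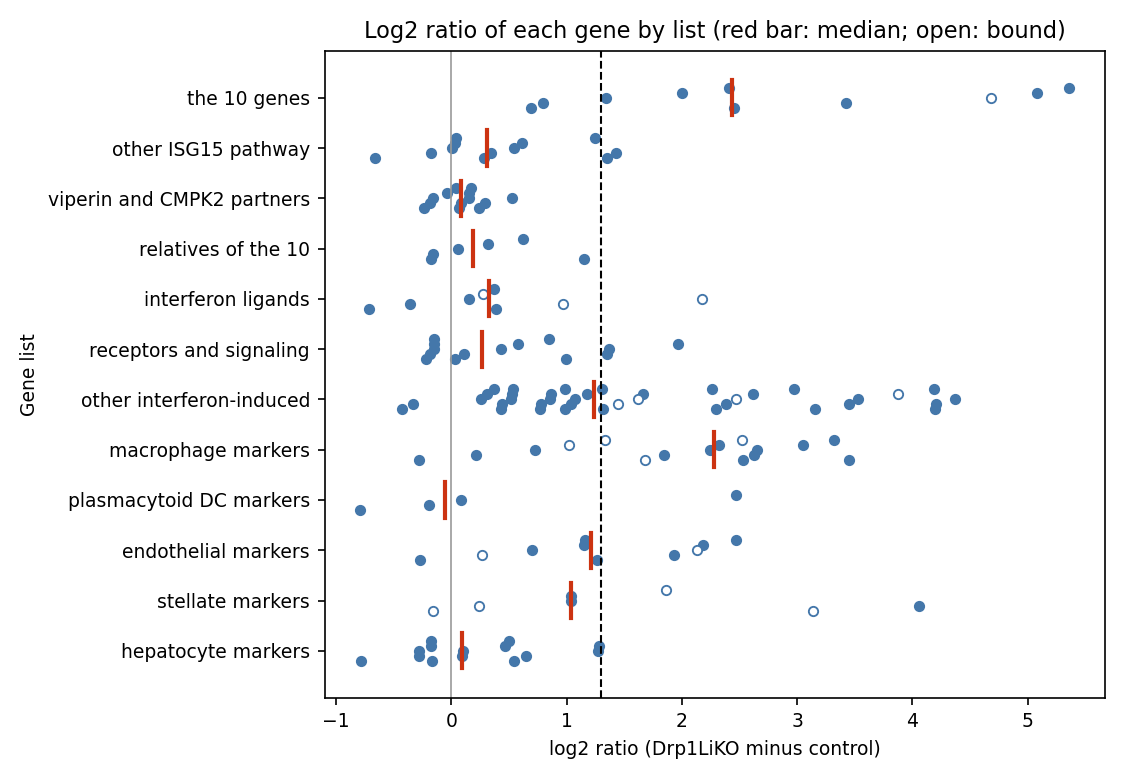
Log2 ratio (*Drp1*LiKO minus control) of each gene, by list, 1 array per genotype. Red bars are medians, open points are bounds, the solid line is at 0 and the dashed line at a Z score of 2. The medians of the 10 genes (2.43) and of the macrophage markers (2.28) lie right of the dashed line, whereas those of the hepatocyte markers (0.10) and of the other ISG15 pathway genes (0.31) lie near 0.

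Markers of macrophages, endothelial cells and stellate cells were also higher in *Drp1*LiKO cells. Of 17 markers of Kupffer cells and macrophages, 16 were compared, 15 were above 0 on the log2 scale and 12 were past the threshold, with a median of 2.28. Their summed signal, before scaling, was 15318 in control cells against 33184 in *Drp1*LiKO cells. Of these sums, which add probes that are not on a common scale, *Cd14* gave 6407 and 8419 and *Itgam* 4132 and 3869. The highest measured on both arrays were *Marco*, a scavenger receptor, at 3.45 and *Aif1* at 3.32, and the lowest *Itgam* at -0.28 and *Cd14* at 0.21. *Timd4*, a marker of resident Kupffer cells, was not well above background on either array. Of 10 endothelial markers, 4 passed the threshold, with a median of 1.21. Their summed signal, before scaling, was 4469 in control cells against 9110 in *Drp1*LiKO cells for all 10. Those that passed were *Kdr* at 2.47, *Clec4g* at 2.18, *Cdh5* at 1.93 and *Lyve1*, a bound of at least 2.13. The lowest endothelial markers measured on both arrays were *Flt4* at -0.28 and *Egfl7* at 0.70. Of 9 stellate cell markers, 7 were compared, 6 were above 0 on the log2 scale and 3 passed, with a median of 1.04. The summed signal of the stellate list, before scaling, was 455 in control cells against 4566 in *Drp1*LiKO cells, of which *Dcn* gave 203 and 3848.

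Plasmacytoid dendritic cells are known for high type I interferon and for surface BST2. Their marker *Siglech* gave a signal of 26239 in control cells against 31597 in *Drp1*LiKO cells, with a log2 ratio of 0.09. This signal lay between those of the hepatocyte markers *Fgb* (26157 and 24423) and *Ttr* (28751 and 47465). Signals of different probes are not on a common scale, and whether that of *Siglech* came from plasmacytoid dendritic cells was not tested. Of their 6 markers 4 were compared, with a median of -0.05. *Ly6d* passed the threshold at 2.47, and the lowest were *Pacsin1* at -0.79 and *Cox6a2* at -0.19. *Ccr9* and *Klk1* were not well above background on either array. *Cd79a* and *Cd79b* of B cells and *Cd3d* and *Cd3g* of T cells were not well above background on either array, and of the 6 B cell and 9 T and NK cell markers listed, 2 of each were compared and none of these passed the threshold. Of 8 neutrophil markers 3 were compared, and *Ly6g* passed with a bound of at least 1.90, while under 3 alternatives no neutrophil marker passed. *Elane*, the only neutrophil marker measured on both arrays, had a log2 ratio of -0.21. The other 5, among them *S100a8* and *S100a9*, were not well above background on either array. Of 6 cholangiocyte markers 4 were compared and none passed, with a median of 0.09. All 14 hepatocyte markers were compared, none passed the threshold, and their median was 0.10. The highest, *Tat* at 1.28, lay just short of it, and the lowest were *Cyp2e1* at -0.78 and *Trf* at -0.28. The summed hepatocyte signal, before scaling, was 857686 in control cells against 913487 in *Drp1*LiKO cells. These sums differed by a smaller factor than the 75th percentiles of the arrays, 313 in control cells against 356 in *Drp1*LiKO cells. Most of the hepatocyte sum came from *Serpina1a*, with 338486 and 339334, *Alb*, with 219613 and 266703, and *Trf*, with 191875 and 179058. The part of these cells in the ratios of the 10 genes was not tested.

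**Figure D4:**
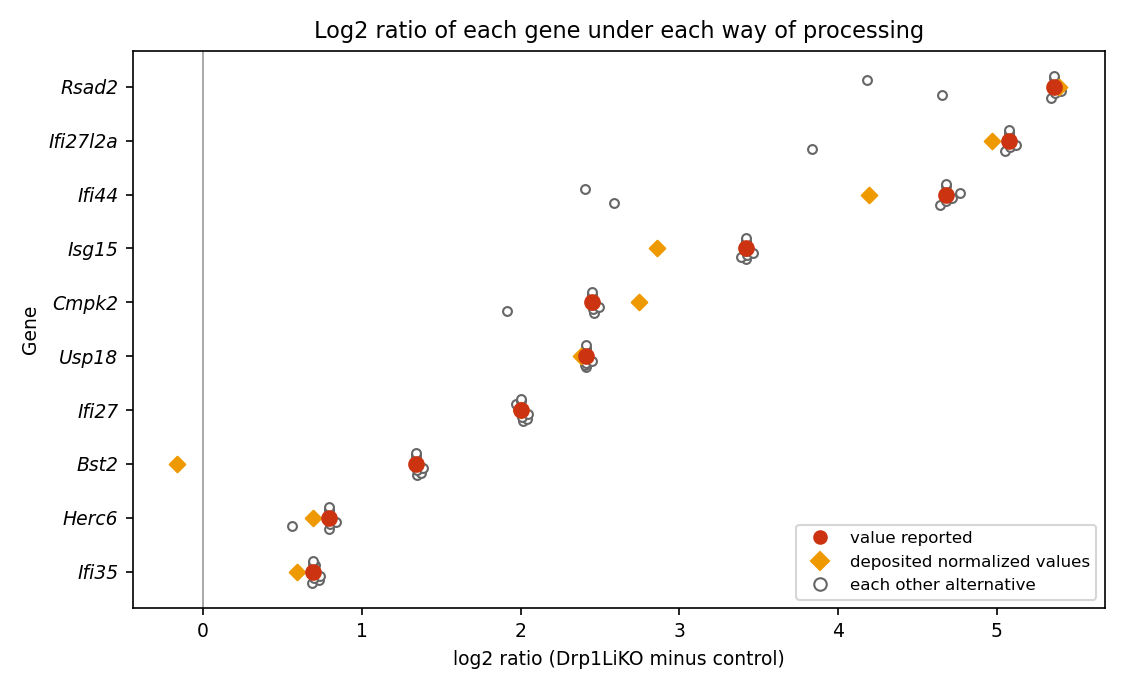
Log2 ratio (*Drp1*LiKO minus control) of each of the 10 genes as reported (red), from the deposited normalized values (orange diamonds) and under each other alternative processing (open circles). Every value lies right of 0 except that of *Bst2* from the deposited normalized values, at -0.17.

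The sizes of the ratios differed in how far they depended on the processing. Those of *Usp18* and *Ifi27* moved least, between 2.38 and 2.45 for *Usp18* and between 1.97 and 2.04 for *Ifi27*, over 12 alternatives. *Rsad2* ranged from 4.19 to 5.40, *Ifi27l2a* from 3.84 to 5.12, *Isg15* from 2.86 to 3.46 and *Cmpk2* from 1.92 to 2.75, and all of these passed the threshold under every alternative run. *Ifi44*, where it was compared, ranged from 2.40 to 4.77 and also passed. *Herc6* ranged from 0.56 to 0.84 and *Ifi35* from 0.59 to 0.73, and they passed only when the Z score was built on the median and its absolute deviation.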

How the data were processed

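RNA of control and *Drp1*LiKO primary hepatocytes was measured on 60-mer Agilent mouse arrays in 1 color, 1 array per genotype, both on 1 slide and in 1 scan. The authors deposited the Feature Extraction output of each array, with the processed intensity of each spot, a linear signal corrected for background and not normalized between arrays. The submitters' processing notes name version 9.5.1.1 and the file headers 10.7.1.1. A further table by the authors holds normalized intensities, whose method is not given in the sources used here.

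Outlier spots were dropped, the spots of a probe were averaged as log2, and each array was scaled to its 75th percentile. A probe was kept if at least 1 array had it well above background, and a dimmer signal was set to the lowest one well above background on its array, which makes the ratio a bound. The Z score was taken over all 30275 probes kept, and a gene was its brightest probe. Errors are those of the error model of Feature Extraction. The number of arrays limits the precision, and no test was run. Probe coordinates are in mm9. The steps were tested on simulated data.

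The 10 genes and all gene lists were chosen with earlier results of these data known, and the motifs after the promoters had been seen. Genes were named by rule: the 10, *Dnm1l*, per list the 2 highest and 2 lowest ratios measured on both arrays and those past the threshold where these were 5 or fewer, the 3 genes nearest to *Rsad2* and to *Isg15*, and the neighbors in the RefSeq table of GRCm38.p6. *Uba7*, *Ube2l6*, *Nmi*, *Irf9*, *Ifnar1*, *Ifnar2*, *Siglech*, *Ifng* and markers named as not well above background were added for their roles after their values were seen. *Alb* and *Serpina1a* were named for their shares of the hepatocyte sum, and *Fgb* and *Ttr* to place the signal of *Siglech*. The values of 3 listed genes are not reported here. Listed names not on the arrays were looked up as RefSeq synonyms. Of 15 probes of the 10 genes, 14 carried an accession that RefSeq gives to the same symbol. The alternatives were quantile normalization, normexp with an offset of 50, another percentile reference, spike-in scaling, the deposited normalized intensities, 2 other filters, no floor, outlier spots kept, the median of the probes, a robust Z score and a Z score within 20 bins of signal. The tools were R 4.3.3 (limma 3.58.1) and Python 3.11.15 (pandas 2.3.3, numpy 2.4.6, matplotlib 3.10.9).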

Additional observations from a re-analysis of the deposited data

How the results depend on the processing

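Of 119 values of the 10 genes under 12 alternatives, 115 kept their direction and their side of the threshold. *Bst2* was reversed with the deposited normalized values, at -0.17, and with no floor its log2 ratio of 1.34 had a Z score of 1.45. *Herc6* and *Ifi35* passed with the robust Z score, at 2.30 and 2.01. The count of genes past the threshold was 8, and it was 7 with the deposited values, with no floor and with only probes well above background on both arrays, where *Ifi44* could not be compared, and 10 with the robust Z score, under which 8.54% of all genes were higher past the threshold. The median ranged from 2.22 with normexp to 2.56 with the deposited values. With no filter on dim probes the median ratio of all genes was -0.47, the difference between the floors of the arrays. Lists also moved: 2 of 14 hepatocyte markers were higher past the threshold under 6 alternatives, 1 relative (none as reported) under 6, and 8 of 10 endothelial markers (4 as reported) with the robust Z score. Why the deposited values of *Bst2* differ was not tested. No paired analysis was possible because each genotype had 1 array, and for the same reason no array could be left out. Signal over background limits *Ifi44*, the second probe of *Ifi27l2a* and most interferon ligands.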
